A study of Mus musculus with 4 samples.

Results

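The transcripts that make up the RNA of normal mouse dorsal epidermis were ranked by abundance in 2 control libraries. The mice carried floxed alleles of Stim1 and Stim2 (genotype Flox/Flox) and served as controls for a keratin 14-Cre knockout of both genes, and no Cre is listed for them. STIM1 and STIM2 are calcium sensors of the endoplasmic reticulum. Shaved dorsal skin was treated with sodium thiocyanate, the epidermis was lifted off the dermis, and total RNA of the epidermal sheet was sequenced from the 3' ends of transcripts. Age, sex, strain and the number of mice are not given in the sources used here, and nothing in them says that the libraries came from separate animals, so the spread between the libraries may be technical. The knockout libraries of the series were not analysed here. Protein-coding genes with at least 10 counts in each control library were taken as members, which gave 3037 of 21620 protein-coding genes listed (14.05%). Of the others, 8839 had a count without reaching the minimum in both libraries and 9744 were listed at 0 in both.

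The epidermis is a stratified epithelium in which keratinocytes divide in a basal layer attached to a basement membrane, move up through spinous and granular layers, and end as a cornified envelope filled with keratin and sealed with lipid. Each step has its own keratins and structural proteins, so the share of RNA from such genes describes which layers a sheet of epidermis holds. Hair follicles and sebaceous glands are continuous with this sheet, and it also houses Langerhans cells, T cells, melanocytes and Merkel cells. In a bulk sample, fewer cells of a type and less RNA per cell cannot be told apart.

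Control replicate 1 held 200293 counts and control replicate 2 held 322426, so both libraries were shallow. Protein-coding genes took 78.0% and 84.4% of these counts, and the members alone took 64.4% and 68.1%. Levels are given in CPM, the count scaled to a total of 1000000 counts per library. Since the kit reads transcript ends, CPM was not divided by feature length, and comparisons between genes use this scale unless ranks per kilobase are named. The minimum of 10 counts corresponded to 49.9 CPM in replicate 1 and 31.01 CPM in replicate 2, and a count of 0 allows up to 3 counts, or 15.0 and 9.30 CPM. These limits and all intervals below cover counting error only, and molecular identifiers, if used, are not described. Over the 3037 members the log2 CPM of the libraries had a Pearson r of 0.849 and a Spearman rho of 0.778, a description across genes, which are not replicates. Of the members, 206 (6.78%) were at least 2-fold higher in replicate 2 and 206 (6.78%) at least 2-fold higher in replicate 1. That even split depended on the scaling, with 251 against 153 after TMM scaling, 248 against 161 with DESeq2 size factors and 164 against 294 when scaled to protein-coding counts. Each count of members past 2-fold given below for a gene list can be read against the 6.78% of all members.

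The abundance of transcripts was spread over many genes. The 10 most abundant members held 5.18% of the counts in replicate 1 and 6.13% in replicate 2, the first 100 held 18.3% and 20.6%, and the first 1000 held 46.0% and 49.9%. The median member had a mean of 114 CPM, the lowest 40.5 CPM and the highest 8821 CPM. Only 80 members exceeded 1000 CPM and 1723 exceeded 100 CPM.

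Among the 30 most abundant members, 9 were ribosomal proteins, 6 belonged to the spinous list, 4 to the granular list, 3 to desmosomes and 2 to the actin cytoskeleton. The first place was held by Lgals7 (ENSMUSG00000053522, chromosome 7, 28563278 to 28565709, plus strand, GRCm39), which encodes galectin-7, a lectin of stratified epithelia. Lgals7 had 1716 and 2926 counts, or 8567 and 9075 CPM (mean 8821 ± 359, SD, n = 2), nearly the same level in both libraries. Fam25c (ENSMUSG00000043681, chromosome 14, 34073838 to 34077390, minus strand) followed with 1199 and 3134 counts, or 5986 and 9720.1 CPM (7853 ± 2640). The order of Lgals7 and Fam25c reversed between the libraries, so their ranks cannot be separated.

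**Figure D1:**
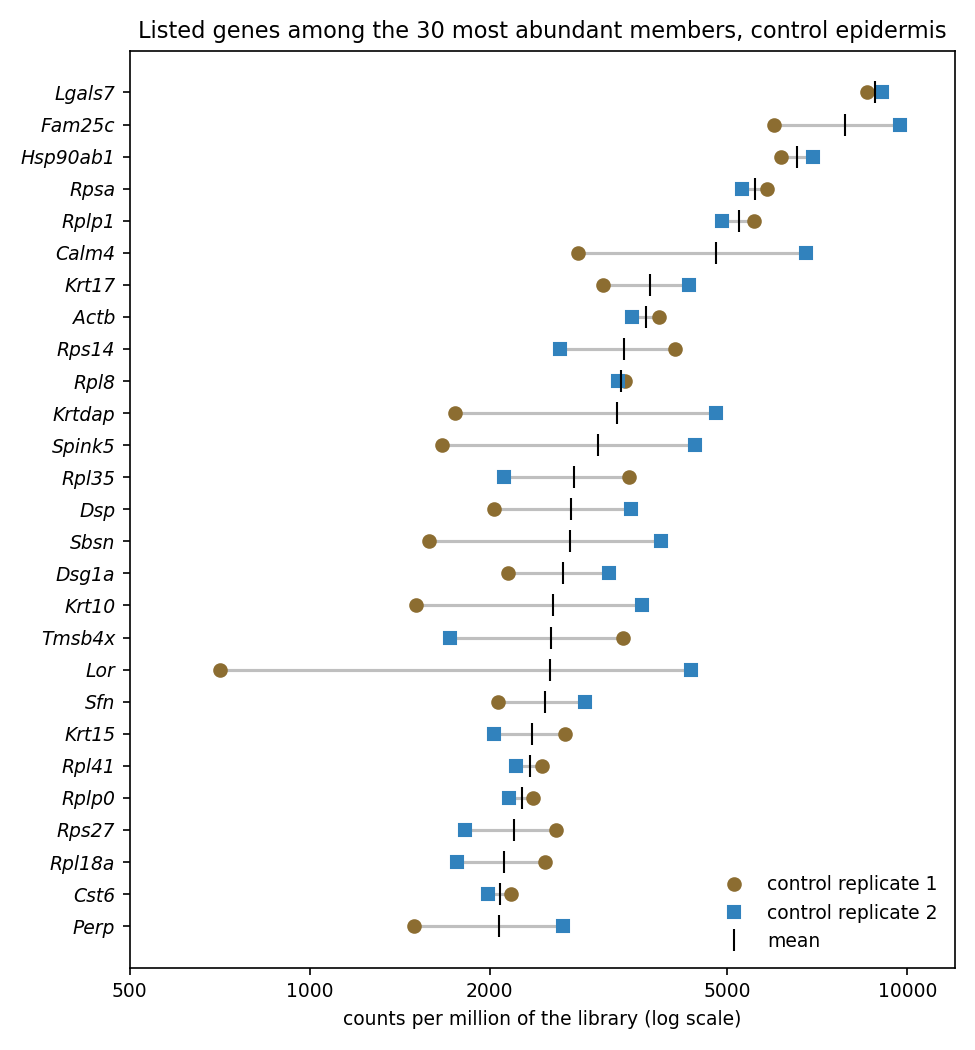
CPM (log scale) of those of the 30 most abundant members that belong to a gene list, in control replicate 1 (circles) and control replicate 2 (squares), with the mean of both as a bar. Lgals7, at 8567 and 9075, is close between libraries, while Lor spans 709 to 4342.

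Several of the next places were held by genes of general cell function. Hsp90ab1, a cytosolic chaperone, had 1229 and 2240 counts (6136 and 6947 CPM), and Ahnak, a giant scaffold protein under the plasma membrane, had 1081 and 2137 counts (5397 and 6628 CPM). Ptma, the acidic nuclear protein prothymosin alpha, had 913 and 1345 counts (4558 and 4172 CPM), and Actb, cytoplasmic beta-actin, had 770 and 1116 counts (3844 and 3461 CPM). These 4 genes differed between libraries by less than 0.30 on the log2 scale.

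The ranking was only partly a matter of library or length. Of the 30 most abundant members, 22 stood in the top 30 of both libraries taken alone, and 20 were also in the top 30 when counts were divided by feature length. Length division moved Fam25c, whose feature is 408 bases long, to the first place and Ahnak from 4th place to rank 173. Over the members, the rank correlation of mean CPM with feature length was -0.11.

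The labelled tissue was checked against the markers of its layers. Basal, spinous and granular markers were all among the members, as were desmosome genes and Langerhans cell genes. None of the dermal collagen genes listed was a member. The summed lists of the suprabasal layers exceeded those of the basal layer in both libraries. Spinous and granular genes together held 3.94% of the counts in replicate 1 and 7.73% in replicate 2, and basal keratinocyte and hemidesmosome genes together held 0.838% and 0.688%. Per kilobase of feature length the mean shares were 11.5% for the spinous, 5.04% for the granular and 0.730% for the basal list. On the CPM scale the suprabasal share was 4.70 times the basal share in replicate 1 and 11.2 times in replicate 2. Without Lgals7 and Fam25c, left out after seeing the data, it was 2.97 and 8.51 times, and the suprabasal lists are also longer, with 107 genes against 34. Suprabasal genes led in each library, but by how much differed more than 2-fold between them.

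**Figure D2:**
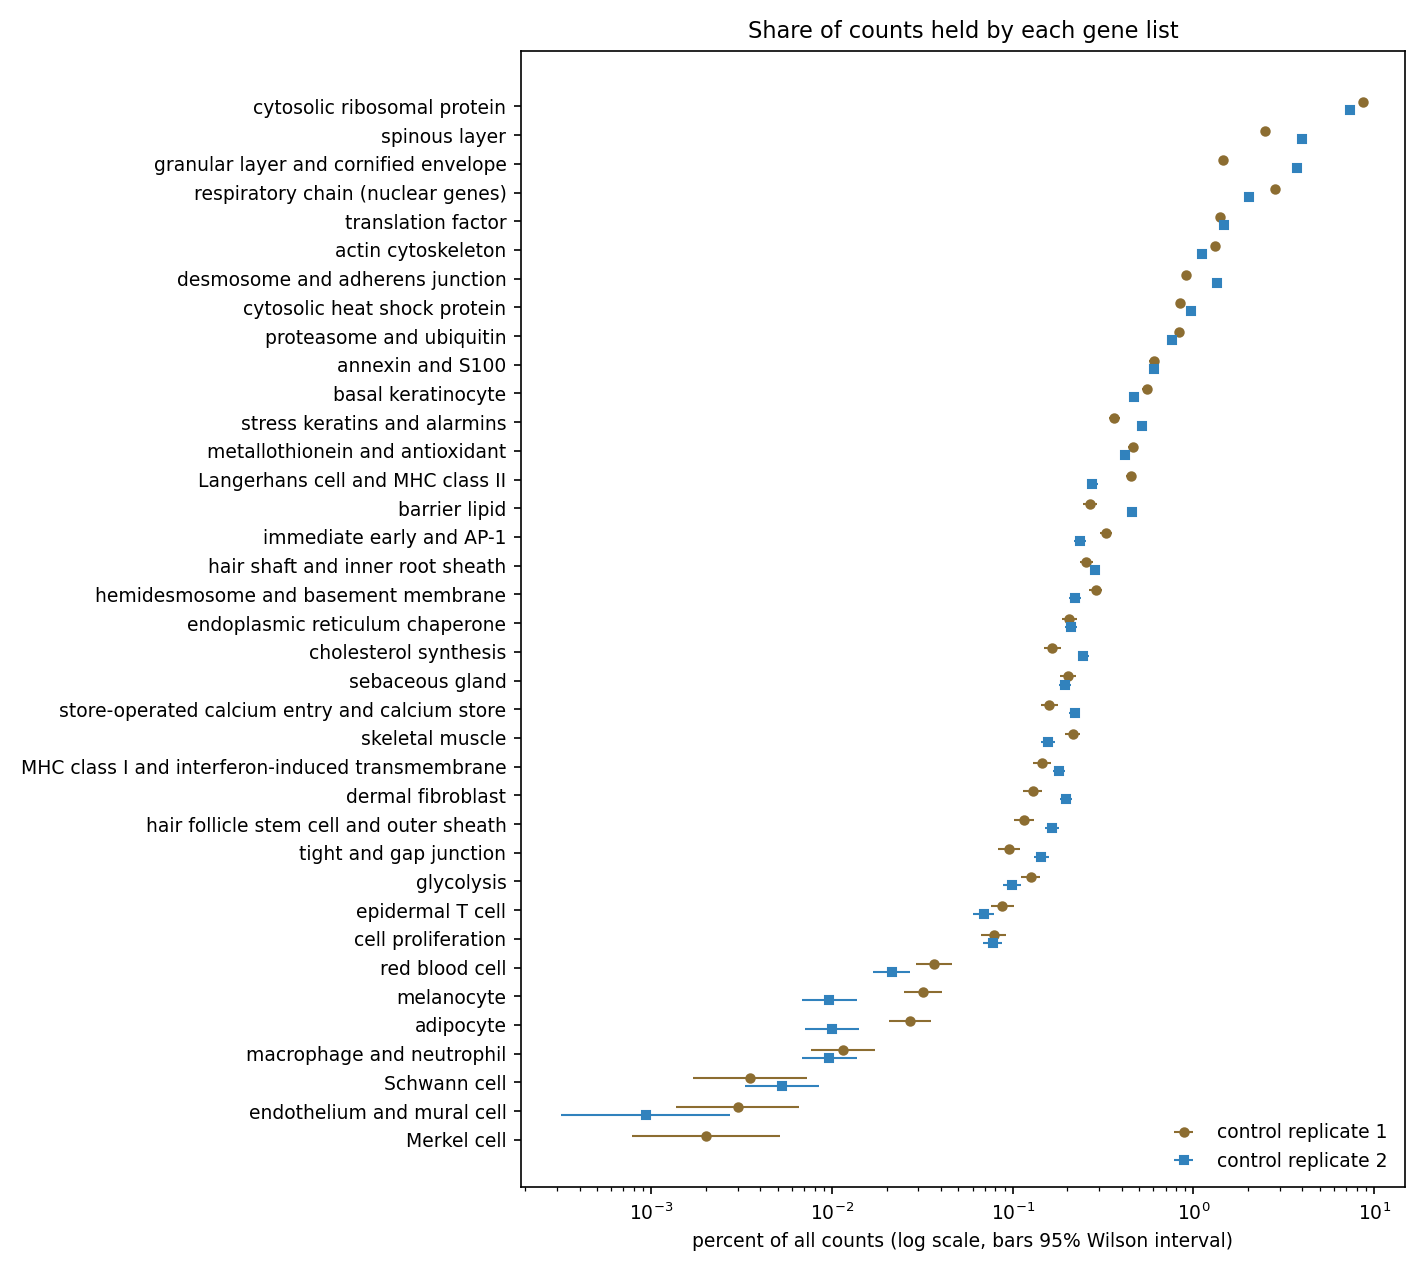
Percent of all counts (log scale) held by each gene list in control replicate 1 (circles) and control replicate 2 (squares), with 95% Wilson intervals. Ribosomal proteins lead with 8.73% and 7.38%. The respiratory chain list (2.82% and 2.03%) is above the spinous (2.47% and 3.98%) and granular lists (1.47% and 3.75%) in replicate 1 and below them in replicate 2. The Merkel cell list had 0 counts in replicate 2 and has no point there.

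The basal layer was represented by 7 members of 14 genes listed. Krt15, a keratin of basal cells and of the hair follicle bulge, was the most abundant of them (ENSMUSG00000054146, chromosome 11, 100022584 to 100026754, minus strand). It had 535 and 657 counts, or 2671 and 2038 CPM (mean 2354 ± 448, SD, n = 2). Krt5 and Krt14 encode the partner keratins that define basal keratinocytes. Krt5 had 259 and 374 counts (1293 and 1160 CPM), and Krt14 had 174 and 271 counts (869 and 841 CPM). Krt14 stood below Krt15 in both libraries, by a count ratio of 3.07 in replicate 1 (exact 95% interval 2.59 to 3.67) and 2.42 in replicate 2 (2.10 to 2.80). Trp63, the transcription factor p63 that keratinocytes need to form a stratified epithelium, had 51 and 93 counts (255 and 288 CPM). The basal list as a whole held 0.551% and 0.467% of the counts. Of its 7 members, 1 (Bcam, a laminin receptor, with 18 and 10 counts) was past 2-fold between the libraries, higher in replicate 1. Krt5 and Krt14 had log2 ratios of -0.16 and -0.05, near the median of all members.

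The genes that anchor basal cells to the basement membrane were less abundant. Dst, which encodes the plakin BPAG1 of hemidesmosomes, had 182 and 203 counts (909 and 630 CPM), and Plec, the plakin plectin, had 141 and 203 counts (704 and 630 CPM). The integrin subunit gene Itga6 had 83 and 87 counts (414 and 270 CPM), and Col7a1, the collagen of anchoring fibrils, had 78 and 86 counts (389 and 267 CPM). In all, 8 of 20 genes listed were members, and 7 of these 8 were higher in replicate 1 (1 past 2-fold, median log2 ratio of replicate 2 over replicate 1 of -0.52). Over all members the median log2 ratio was -0.05.

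The spinous layer list held 2.47% of the counts in replicate 1 and 3.98% in replicate 2, with 19 members of 22 genes listed. Lgals7 and Fam25c make up much of this. Lgals7 is known from several layers of the epidermis, so the list was also summed without these 2 genes, which left 1.02% and 2.10%. Krt10 is the keratin that replaces the basal keratins as cells leave the basal layer (ENSMUSG00000019761, chromosome 11, 99276080 to 99280190, minus strand). Krt10 had 302 and 1162 counts, or 1508 and 3604 CPM (mean 2556 ± 1482, SD, n = 2). Krt10 exceeded Krt5 by a count ratio of 1.17 in replicate 1 (0.984 to 1.38) and 3.11 in replicate 2 (2.76 to 3.50). The intervals of the ratio do not overlap, and in replicate 1 Krt10 and Krt5 were not separated by counting error.

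Secreted and regulatory genes of early differentiation followed the same order of libraries. Krtdap, a secreted protein of differentiating keratinocytes, had 351 and 1544 counts (1752 and 4789 CPM), and Sbsn, suprabasin, had 317 and 1246 counts (1583 and 3865 CPM). Dmkn, dermokine, which lies beside both in the genome, had 145 and 596 counts (724 and 1849 CPM). Sfn, the 14-3-3 sigma adaptor of keratinocytes, had 414 and 931 counts (2067 and 2888 CPM), and Klf4, a transcription factor of barrier formation, had 105 and 246 counts (524 and 763 CPM). All 19 spinous members were higher in replicate 2, 7 of them by at least 2-fold, with a median log2 ratio of 0.73. Scaled to protein-coding counts, the number higher in replicate 2 was 17 of 19.

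The granular layer and cornified envelope list was the most uneven of the layers. It held 1.47% of the counts in replicate 1 and 3.75% in replicate 2, a ratio of 2.56, from 32 members of 85 genes listed. Calm4, a calmodulin-like protein of differentiated skin (ENSMUSG00000033765, chromosome 13, 3887757 to 3888673, plus strand), had 563 and 2184 counts, or 2811 and 6774 CPM (mean 4792 ± 2802, SD, n = 2). Spink5, the inhibitor LEKTI that restrains the kallikrein proteases of desquamation, had 333 and 1424 counts (1663 and 4417 CPM). Klk7, one of those proteases, had 55 and 493 counts (275 and 1529 CPM). Replicate 2 was higher for the inhibitor and for the protease alike.

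Loricrin (Lor, ENSMUSG00000043165, chromosome 3, 91987578 to 91990449, minus strand), the main protein of the cornified envelope, had 142 and 1400 counts, or 709 and 4342 CPM (2526 ± 2569). Its log2 ratio of replicate 2 over replicate 1 was 2.61 (exact 95% interval 2.36 to 2.87). Flg2, filaggrin-2, had 63 and 515 counts (315 and 1597 CPM), Flg, filaggrin, had 20 and 98 counts (99.9 and 304 CPM), and Hrnr, hornerin, had 16 and 56 counts (79.9 and 174 CPM). Each of these genes for large granule proteins was below Lor in replicate 2 on the CPM scale and higher there than in replicate 1. Per kilobase Lor stood at rank 26 and Flg2 at rank 964. Some genes of the list were close between the libraries. Ivl, involucrin, an early envelope protein, had 257 and 397 counts (1283 and 1231 CPM), Tchhl1 had 158 and 258 counts (789 and 800.2 CPM), and Cst6, a cystatin that inhibits cathepsins in the upper epidermis, had 435 and 642 counts (2172 and 1991 CPM). In total 27 of the 32 granular members were higher in replicate 2, 22 of them by at least 2-fold, against 1 that was at least 2-fold higher in replicate 1, and the median log2 ratio was 1.43. Under the other scalings the number higher in replicate 2 was 26 to 28 of 32.

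The late cornified envelope genes marked the difference most. Lce1m had 63 and 1053 counts (315 and 3266 CPM), a log2 ratio of 3.38 (3.01 to 3.77), the highest among members with at least 60 counts. Lce1a2 had 37 and 438 counts (185 and 1358 CPM) and Lce1b had 22 and 192 counts (109.8 and 595 CPM). Lce1c, Lce1a1 and Lce1l were also members, and all 6 Lce1 members were at least 2-fold higher in replicate 2. The 21 Lce genes listed held 0.108% of the counts in replicate 1 and 0.677% in replicate 2, a ratio of 6.28. Lce1 genes are near copies of each other, and how the authors counted reads that match several copies is not stated. Both the split among these genes and the family sum may depend on this, which was not tested. The Sprr family, small proline-rich envelope proteins that also mark stressed epidermis, gave 1 member of 16 genes. That member, Sprr1a, had 55 and 62 counts (275 and 192 CPM), and 9 of the 16 were listed at 0 in both libraries.

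Lor, Flg2, Flg, Ivl, Tchhl1, Lce and Sprr genes lie together in the epidermal differentiation complex on chromosome 3, here taken as 90418341 to 93471950 in the coordinates of the table. Of 76 protein-coding genes there, 28 were members, and the interval held 1.22% of the counts in replicate 1 and 2.39% in replicate 2. Of the 28 members, 12 were at least 2-fold higher in replicate 2, the 6 Lce1 members among them, and 0 in replicate 1. At any size of difference, 19 were higher in replicate 2 and 9 in replicate 1, with a median log2 ratio of 0.33. Prr9, which lies in the interval and in no list, had 417 and 565 counts (2082 and 1752 CPM) and stood at rank 34. Some envelope genes stayed near the limit of detection, with 0 and 2 counts for Casp14, a caspase of cornifying cells, and 0 and 10 for Tgm1, a transglutaminase that crosslinks the envelope.

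Promoter sequence was looked at because the suprabasal members shared a level pattern. Windows of 250 bases before each annotated start, from RefSeq (GRCm38.p6), were found for 15646 of the protein-coding symbols and for 2422 of the member symbols. The motif TATAAA was searched on both strands, as was TGANTCA, which reads the same on either strand and is the core of the AP-1 element, and GGGCGG, the core of the GC box. TATAAA was found in 12 of 30 windows of granular members (40%) and 21.1% of those of spinous members, against 10.1% of all 19279 windows and 7.05% of all member windows. For TGANTCA the shares were 33.3% for granular and 36.8% for spinous members, against 6.01% of all windows. For GGGCGG the order was the other way in the granular list, with 6.67% of granular windows, 46.2% of all windows and 60.5% of member windows. Spinous windows, at 42.1%, were near the share of all windows, and the 5 basal windows held 0. Windows of ribosomal protein members held TATAAA in 5.56% and TGANTCA in 2.78%. The motifs were not particular to the suprabasal lists, since some other lists, each with few windows, had comparable or higher shares. For TATAAA these included the MHC class I (57.1%) and hair (50%) lists. For TGANTCA they included the tight and gap junction (50%) and endoplasmic reticulum chaperone (28.6%) lists. The 5 basal windows held neither motif. Some genes have several windows, and Lce1 promoters are related copies, so windows are not independent. A match describes the letters only, and no match says only that these letters are absent from the window.

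The 120 bases before the start are printed for 5 suprabasal members that hold TATAAA, to show where the motifs lie, and, beside them, for the basal gene Krt5 and the ribosomal gene Rpl35, with TATAAA and TGANTCA in capitals. They are 5' to 3' on the strand of the gene. In GRCm38.p6 they lie at chr3:92083143-92083262 (Lor, minus strand), chr3:93019062-93019181 (Lce1m, minus), chr7:30787785-30787904 (Krtdap, plus), chr14:34355394-34355513 (Fam25c, minus), chr11:99389365-99389484 (Krt10, minus), chr15:101712906-101713025 (Krt5, minus) and chr2:39005132-39005251 (Rpl35, minus).
Lor: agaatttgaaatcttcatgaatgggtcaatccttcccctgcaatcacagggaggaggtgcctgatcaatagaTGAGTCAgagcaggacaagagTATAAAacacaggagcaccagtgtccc
Lce1m: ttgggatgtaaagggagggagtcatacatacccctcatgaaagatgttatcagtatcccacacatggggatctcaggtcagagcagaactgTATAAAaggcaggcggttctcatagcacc
Krtdap: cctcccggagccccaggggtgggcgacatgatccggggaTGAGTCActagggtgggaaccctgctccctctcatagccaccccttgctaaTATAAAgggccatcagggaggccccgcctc
Fam25c: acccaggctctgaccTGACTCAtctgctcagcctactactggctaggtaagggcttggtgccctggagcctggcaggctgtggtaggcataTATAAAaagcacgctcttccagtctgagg
Krt10: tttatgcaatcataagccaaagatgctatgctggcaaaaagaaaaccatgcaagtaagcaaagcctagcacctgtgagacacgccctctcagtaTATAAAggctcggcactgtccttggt
Krt5: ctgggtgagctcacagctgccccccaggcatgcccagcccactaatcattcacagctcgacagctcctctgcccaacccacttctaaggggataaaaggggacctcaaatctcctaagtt
Rpl35: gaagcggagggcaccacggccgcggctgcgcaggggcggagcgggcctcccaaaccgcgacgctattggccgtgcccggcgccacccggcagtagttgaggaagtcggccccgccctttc
With the base just before the start counted as -1, TATAAA began at -27 in Lor, -29 in Lce1m, -30 in Krtdap, -29 in Fam25c and -26 in Krt10. TGANTCA began at -48 in Lor, -81 in Krtdap and -105 in Fam25c. The Krt5 and Rpl35 stretches hold neither motif. The 5 suprabasal genes were chosen for holding TATAAA, so they do not stand for their lists. Among the 14 named spinous and granular members with 1 window, 5 held TATAAA in these 120 bases, 5 held TGANTCA and 7 held neither, Lgals7, Calm4, Sfn and Klk7 among them. TATAAA with its first base about 20 to 40 bases before the start was found in 16.7% of granular and 21.1% of spinous windows, against 2.60% of all windows. Some other lists with few windows had higher shares, with 50% of 6 hair windows and 25% of 8 immediate early windows. Others, such as the basal list, had 0.

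The keratin family gave 13 members of 53 genes and held 1.27% and 1.77% of the counts. By mean CPM the order was Krt17, Krt10, Krt15, Krt5, Krt23, Krt14, Krt78, Krt75, Krt77, Krt16, Krt79, Krt80 and Krt1. Krt17, which is known from hair follicles and from wounded epidermis, led with 621 and 1389 counts (3101 and 4308 CPM), at rank 9 of all members. Krt10 was above Krt15 on average only through replicate 2, since Krt15 was the higher of the pair in replicate 1. Krt78, a keratin of differentiated layers, had 101 and 344 counts (504 and 1067 CPM), and Krt77 had 88 and 199 (439 and 617 CPM). Krt1, the usual partner of Krt10, had only 13 and 26 counts (64.9 and 80.6 CPM), and Krt2, a keratin of the upper epidermis, had 1 and 7. The count ratio of Krt10 to Krt1 was 23.2 in replicate 1 (13.4 to 44.1) and 44.7 in replicate 2 (30.3 to 68.7). Near copies within the family and the position of annotated 3' ends can both set such counts, and their part was not tested.

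**Figure D3:**
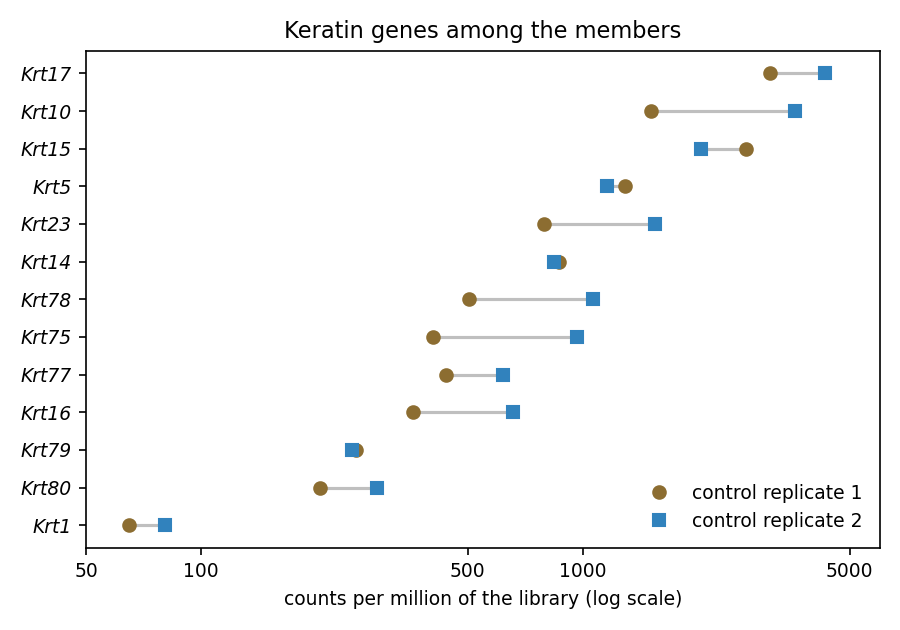
CPM (log scale) of the 13 keratin genes among the members, in control replicate 1 (circles) and control replicate 2 (squares). Krt17, Krt10 and Krt15 are the highest, and Krt10 (1508 and 3604) lies further apart between libraries than Krt5 (1293 and 1160) or Krt14 (869 and 841).

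Keratins and alarmins of injured or inflamed epidermis were otherwise sparse. Beside Krt17, Krt16 had 72 and 212 counts (359 and 658 CPM), and Il36g, an interleukin of the epidermis, had 14 and 44. Krt6a, which wounded epidermis induces together with Krt16, had 4 and 9 counts and S100a8 had 2 and 3, both under the minimum. Without Krt17 the list held 0.0544% and 0.0899% of the counts. Of its 25 genes, 9 were listed at 0 in both libraries.

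Genes of the cell junctions formed a second large group of epidermal transcripts. The desmosome and adherens junction list held 0.912% and 1.35% of the counts, with 15 members of 20 genes. Dsp, desmoplakin, which ties desmosomes to keratin filaments, had 408 and 1111 counts (2037 and 3446 CPM). Dsg1a, a desmoglein 1 gene of the upper layers, had 430 and 1020 counts (2147 and 3164 CPM), whereas Dsg3, the desmoglein of lower layers, had 4 and 2 and was not a member. Perp, a desmosomal membrane protein, had 299 and 856 counts (1493 and 2655 CPM). Pkp3, plakophilin 3, and Cdh1, E-cadherin of the adherens junction, did not share that direction, with 171 and 262 counts (854 and 813 CPM) and 135 and 170 counts (674 and 527 CPM). Of the 15 members, 12 were higher in replicate 2 and 0 were past 2-fold, with a median log2 ratio of 0.51.

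Tight and gap junction genes were lower. The list held 0.0949% and 0.144% of the counts with 7 members of 17 genes. Cldn1, the claudin of the epidermal tight junction barrier, had 37 and 55 counts (185 and 171 CPM). Gjb5, a connexin, had 22 and 148 counts (109.8 and 459 CPM) and was the 1 member of the list past 2-fold.

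Barrier lipid genes gave 13 members of 32 and held 0.267% and 0.456% of the counts. Elovl4, which makes the very long fatty acids of epidermal ceramides, had 137 and 345 counts (684 and 1070 CPM). Acer1, a ceramidase, had 67 and 131 counts (335 and 406 CPM), and Abca12, the lipid transporter of lamellar granules, had 15 and 79 counts (74.9 and 245 CPM). Alox12b and Aloxe3, the lipoxygenases that process ceramides, had 6 and 25 counts and 3 and 25 counts and were not members. Of the 13 members, 10 were higher in replicate 2, 3 of them by at least 2-fold, and the median log2 ratio was 0.64. The pattern followed that of the granular list at a smaller size. Cholesterol synthesis genes, which supply another barrier lipid, gave 12 members of 22 and 0.166% and 0.245% of the counts, led by Hmgcs1 with 48 and 151 counts (240 and 468 CPM).

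The hair follicle and sebaceous gland lists held small shares. Tchh, trichohyalin of the inner root sheath, had 257 and 398 counts (1283 and 1234 CPM) and held much of the hair list, in which 6 of 88 genes were members and 27 were listed at 0 in both libraries. Among hair keratin-associated genes, 3 of 57 were members, led by Krtap3-2 with 37 and 85 counts (185 and 264 CPM). Of the outer sheath and stem cell genes, Krt75 had 81 and 312 counts (404 and 968 CPM) and Krt79 of the follicle opening had 51 and 80 (255 and 248 CPM), whereas Sox9, Lgr5 and Cd34 of follicle stem cells stayed under 10 counts in each library. Sebaceous genes gave 10 members of 21 and 0.202% and 0.194% of the counts. Soat1, which esterifies cholesterol, had 111 and 142 counts (554 and 440 CPM), Scd1, a desaturase, had 48 and 97 (240 and 301 CPM), and Awat1, a wax synthase, had 16 and 18. The follicle and gland lists as drawn up therefore summed to far less than the suprabasal lists in each library. Krt15 (2671 and 2038 CPM) and Krt17 (3101 and 4308 CPM), both also known from follicles, were counted in the basal and stress lists. The share of follicle RNA may thus be larger than these lists show.

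Langerhans cells are the resident antigen-presenting cells of the epidermis. The list of Langerhans cell and MHC class II genes held the largest share of the immune lists. Cd74, the invariant chain of MHC class II, had 231 and 239 counts, or 1153 and 741 CPM (mean 947 ± 291, SD, n = 2), and stood at rank 84. The class II chains H2-Ab1 with 188 and 147 counts (939 and 456 CPM), H2-Aa with 163 and 159 (814 and 493 CPM) and H2-Eb1 with 115 and 94 (574 and 292 CPM) followed. Cd207, the langerin that defines Langerhans cells, had 8 and 10 counts and was not a member, so the share of the list rests on its other genes. All 10 members of the 15 genes listed were lower in replicate 2, 2 of them by at least 2-fold, with a median log2 ratio of -0.70, and this held for all 10 under every scaling tried. The list held 0.451% and 0.276% of the counts. Epidermal T cell genes gave 6 members of 17, with 26 and 18 counts for Ptprc (CD45), 15 and 23 for Cd3g of the T cell receptor complex and 19 and 59 for Nkg7. The T cell list held 0.0874% and 0.0689% of the counts.

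The other resident cells were hardly seen. Of 10 melanocyte genes only Dct, a melanin-synthesis enzyme, was a member, with 61 and 26 counts (305 and 80.6 CPM), and 6 were listed at 0 in both libraries, Tyr and Pmel among them. Of 7 Merkel cell genes 6 were listed at 0 in both, Atoh1, Krt8 and Krt18 among them, and Krt20 had 4 and 0 counts. A listed 0 is not proof of absence in these data, since Pfn1, a profilin used by nearly every cell, was also listed at 0 in both and Eno1, a glycolytic enzyme, had 1 and 5 counts.

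Cells from below the epidermis were checked with 7 lists. The fibroblast list held 0.129% and 0.196% of the counts, but Gsn, gelsolin, which keratinocytes also express, made up most of it with 194 and 578 counts. Without Gsn the share was 0.0320% and 0.0171%. Sparc, the other member of the list, had 21 and 15 counts (105 and 46.5 CPM). Of the dermal collagen genes, Col1a2 had 13 and 5 counts, Col3a1 had 7 and 17 and Col1a1 had 6 and 7. Of 13 vessel genes 0 were members and 8 were listed at 0 in both, Cdh5 and Kdr of the endothelium among them. Skeletal muscle genes, which mark the thin muscle sheet under mouse skin, were the exception with 10 members of 26 and 0.215% and 0.157% of the counts. Tnnc2, fast troponin C, had 114 and 116 counts (569 and 360 CPM), Ttn, titin, had 90 and 117 (449 and 363 CPM), and Myh4, a fast myosin, had 37 and 32 (185 and 99.2 CPM). Muscle transcripts were thus present in both libraries, although the sheet was labelled epidermis. Red blood cell genes gave 3 members of 5, with 28 and 32 counts for Hba-a1, a gene with a near copy. Adipocyte genes gave 1 member of 10 (Car3, also a muscle gene, with 32 and 23 counts). In the same list Fabp4 had 11 and 1 counts and Cfd had 4 and 6. Macrophage and neutrophil genes gave 0 members of 14, with Lyz2 highest at 8 and 6 counts, and Schwann cell genes gave 0 of 5.

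Genes of protein synthesis were the largest functional group. Cytosolic ribosomal proteins held 8.73% of the counts in replicate 1 and 7.38% in replicate 2, with 82 members of 86 genes. Rpsa (ENSMUSG00000032518, chromosome 9, 119956755 to 119961435, plus strand), a small-subunit protein, led with 1165 and 1706 counts, or 5817 and 5291 CPM (mean 5554 ± 371, SD, n = 2). Rplp1, a stalk protein, had 1110 and 1578 counts (5542 and 4894 CPM), Rps14 had 817 and 847 (4079 and 2627 CPM) and Rpl8 had 675 and 1056 (3370 and 3275 CPM). The lowest member, Rps15a, had 15 and 26 counts (74.9 and 80.6 CPM) at the other end of a wide range. Ribosomal protein genes have many processed pseudogenes, and how reads that match those copies were assigned is not stated. As a group 65 of 82 were higher in replicate 1 with 0 past 2-fold and a median log2 ratio of -0.23, against -0.05 for all members. The number higher in replicate 2 was 17, and 10 to 23 under the other scalings. Translation factors added 1.40% and 1.48% with 38 members of 41, led by Eef1a1, the factor that brings aminoacyl-tRNA to the ribosome, with 377 and 557 counts (1882 and 1727 CPM).

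Nuclear genes of the respiratory chain held 2.82% and 2.03% of the counts, with 70 members of 85 genes. Ndufc1, a subunit of complex I, led with 468 and 526 counts (2337 and 1631 CPM), and Ndufa7 and Ndufa13 of the same complex had 319 and 269 counts (1593 and 834 CPM) and 284 and 290 counts (1418 and 899 CPM). Of the 70 members 60 were higher in replicate 1, 8 of them by at least 2-fold, and 0 were 2-fold higher in replicate 2, with a median log2 ratio of -0.48. The number higher in replicate 2 was 10, and 7 to 13 under the other scalings. Glycolytic genes were lower, at 0.125% and 0.0989%, led by Aldoa, aldolase A, with 65 and 74 counts and Ldha, lactate dehydrogenase A, with 53 and 80. Gapdh, often a very abundant transcript, had 13 and 26 counts, which limits what this list can say.

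Other general functions held smaller shares of the counts. Proteasome and ubiquitin genes held 0.834% and 0.762% of the counts with 31 members of 41, led by Psma7, a core subunit, with 393 and 553 counts (1962 and 1715 CPM). The actin list held 1.32% and 1.12%, and in it Tmsb4x, the actin-binding peptide thymosin beta 4, had 670 and 553 counts (3345 and 1715 CPM), just under 2-fold higher in replicate 1. Annexin and S100 genes held 0.601% and 0.607%, led by Anxa2, a membrane-binding annexin, with 243 and 368 counts (1213 and 1141 CPM). The heat shock list held 0.840% and 0.967%, with 86.5% and 83.1% of that from Hsp90ab1 and Hsp90aa1, while Hspb1, a small heat shock protein of differentiating keratinocytes, had 31 and 185 counts (155 and 574 CPM). Chaperones of the endoplasmic reticulum held 0.206% and 0.211% with 7 members of 18, led by Hsp90b1 with 90 and 158 counts. Metallothionein and antioxidant genes held 0.464% and 0.418% with 15 members of 26, led by the peroxiredoxin Prdx5 with 137 and 344 counts (684 and 1067 CPM). Of these 15, 10 were higher in replicate 1, with a median log2 ratio of -0.53, Gpx4, a lipid peroxidase, among them with 154 and 132 counts (769 and 409 CPM). MHC class I and related genes held 0.146% and 0.180% with 6 members of 10, among them B2m, the light chain of class I, with 56 and 120 counts (280 and 372 CPM).

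Immediate early genes, which dissociation and handling of tissue can induce, held 0.329% and 0.235% of the counts. Jund, an AP-1 subunit, had 247 and 293 counts (1233 and 909 CPM), Egr1, a zinc finger factor, had 87 and 49 (434 and 152 CPM) and Fos had 23 and 11. Proliferation genes were scarce, with 5 members of 32 and 0.0784% and 0.0772% of the counts. Among them Top2a, the topoisomerase of dividing cells, had 13 and 18 counts and Mki67, the Ki-67 gene, had 10 and 12, at the edge of the minimum.

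Genes of calcium handling were present at moderate levels. Atp2b1, a plasma membrane calcium pump, had 84 and 247 counts (419 and 766 CPM), and Orai1, the channel that STIM proteins open, had 29 and 59 (145 and 183 CPM). Stim1 had 24 and 62 counts (120 and 192 CPM), and its interval for the log2 ratio ran from -0.02 to 1.43. Stim2 had 3 and 18 counts (15.0 and 55.8 CPM) and was not a member. Of 19 genes listed 7 were members, among them Itpr2 and Itpr3, which release calcium from the store, whereas Itpr1 was listed at 0 and Orai2 and Orai3 had 1 count each in replicate 1 and 0 in replicate 2.

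Most members lay outside these lists. The 491 listed members took 39.7% of the members' counts in replicate 1 and 40.2% in replicate 2, and 2546 members were in no list. Among the most abundant of these were Ahnak, Ptma and Prr9, described above, H3f3b, a variant histone H3 gene, with 296 and 413 counts (1478 and 1281 CPM), and Nfe2l1, a stress transcription factor, with 264 and 442 (1318 and 1371 CPM). Apoe, a lipid carrier, had 240 and 401 counts (1198 and 1244 CPM), and Ccl27a, a chemokine of keratinocytes, had 309 and 274 (1543 and 849.8 CPM). Krt23 had 159 and 498 counts (794 and 1545 CPM) and Wfdc21 had 67 and 484 (335 and 1501 CPM).

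The annotation terms of the table, chosen after values were seen, described the members in another way. Of genes with the term cornified envelope, 33 of 61 were members (54.1%), and for desmosome the number was 16 of 25 (64.0%), for hemidesmosome 8 of 9 (88.9%) and for cytosolic ribosome 76 of 80 (95%). Across all protein-coding genes 14.05% were members. Nearer to that share were keratin filament (13 of 52, 25%), mitochondrion (436 of 1821, 23.9%) and DNA-binding transcription factor activity (91 of 615, 14.8%), and extracellular region was below it (142 of 1728, 8.22%). In the terms' share of protein-coding counts, cornified envelope genes held 3.89% in replicate 1 and 5.22% in replicate 2, and cytosolic ribosome genes held 10.3% and 8.06%.

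The libraries were then compared gene by gene. Among the 1524 members with at least 60 counts in both libraries together, 169 were at least 2-fold higher in replicate 2 and 51 in replicate 1. Among the 336 with at least 200 counts the numbers were 40 and 3. Both sets were chosen on raw counts summed over the libraries, and replicate 2 is the deeper one. Genes higher in replicate 2 therefore enter these sets more easily, so the uneven numbers cannot be read as a property of abundant genes alone. The 10 largest ratios toward replicate 2 were those of Lce1m, Lce1a2, Lor, Sertad1, Klk7, Lce1b, Lad1, Asprv1, Mboat2 and Flg2. Of these, 7 are on the granular list. Asprv1, the protease that processes filaggrin, had 30 and 253 counts (150 and 785 CPM), and Mboat2, a lipid acyltransferase, had 38 and 320 (190 and 992 CPM). The 10 largest ratios toward replicate 1 were those of Dct, Ndufb5, Cox20, Sdhb, H2az2, Ftl1, Arpc1b, Egr1, Arl4c and Lgals1. Sdhb, a subunit of succinate dehydrogenase, had 97 and 48 counts (484 and 149 CPM), and Lgals1, galectin-1, had 74 and 44 (369 and 136 CPM). In this set Ndufb5 and Sdhb are on the respiratory chain list, and Cox20, on no list, is an assembly factor of cytochrome oxidase.

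**Figure D4:**
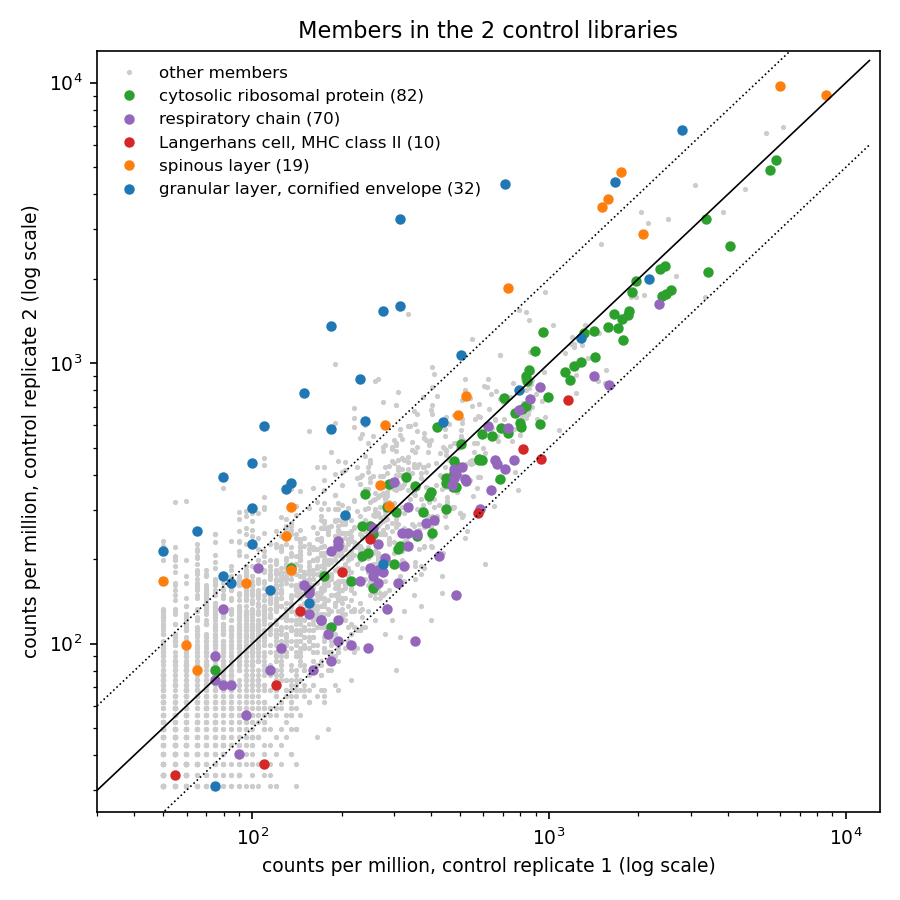
CPM of the 3037 members in control replicate 1 (x axis, log scale) and control replicate 2 (y axis, log scale), with equality as a solid line and 2-fold differences as dotted lines. Granular genes (32) lie mostly above the upper dotted line, while ribosomal (82), respiratory chain (70) and Langerhans cell genes (10) lie mostly on or below equality.

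Other properties of the libraries moved with this difference. Replicate 2 had the higher total, the higher protein-coding share and the lower share of unprocessed pseudogenes (8.36% against 14.1%). It also had lower shares of the Langerhans cell, T cell, muscle and red blood cell lists, and of the adipocyte and melanocyte lists, with 1 member each. The fibroblast list, mostly Gsn, went the other way (0.129% in replicate 1 and 0.196% in replicate 2). Without Gsn it was lower in replicate 2 as well (0.0320% and 0.0171%). The Schwann cell list had 7 and 17 counts, or 0.0035% and 0.0053%. Its intervals overlap (0.0017% to 0.0072% and 0.0033% to 0.0084%). With 1 library on each side the part of these properties in the difference was not tested. Exact 95% intervals for the ratio of a gene excluded equality for 406 members toward replicate 2 and 387 toward replicate 1. These intervals assume independent molecules, were not adjusted for the number of genes, and some exclude equality by chance.

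**Figure D5:**
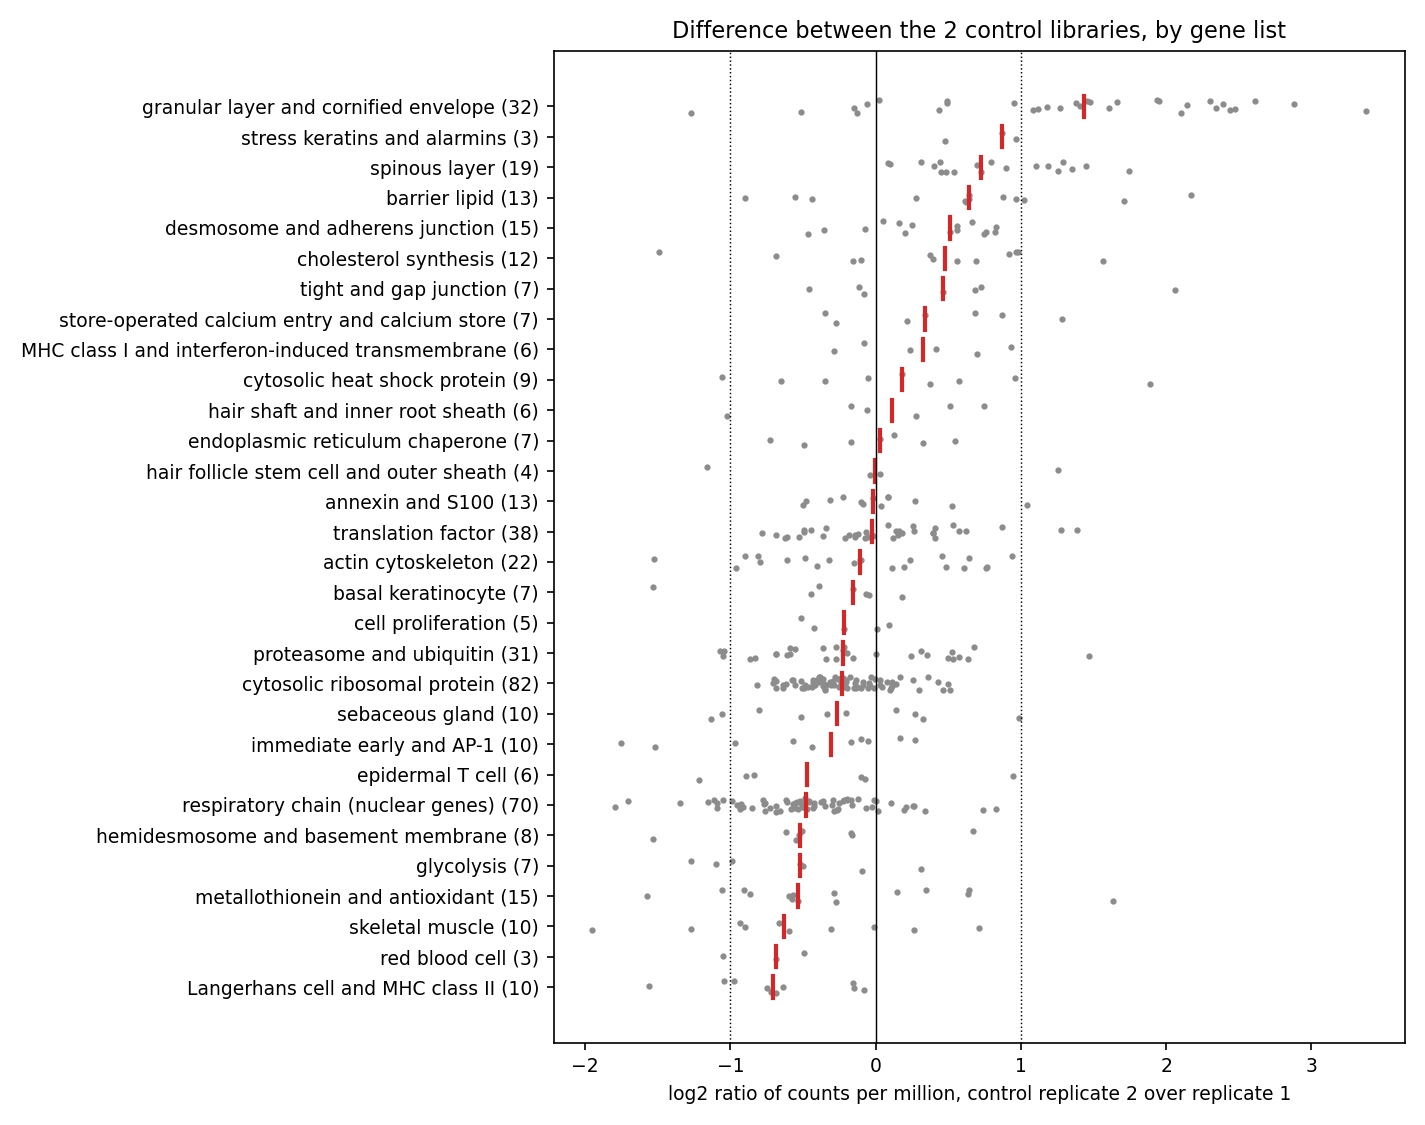
Log2 ratio of CPM, control replicate 2 over control replicate 1, for each member (points) of the gene lists with at least 3 members, with the list median as a vertical bar, the number of members in brackets and dotted lines at 2-fold. Medians run from 1.43 for the granular list to -0.70 for the Langerhans cell list.

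At the edge of the minimum the choice of members is arbitrary. Snd1, Nkap and 2310011J03Rik stood just inside with 10 and 10 counts each. Just outside were Kprp, an epidermal differentiation complex gene with 9 and 74 counts, Ctsl, cathepsin L, with 9 and 52, and Serpina3j with 35 and 9. Of the 8839 genes with counts that were not members, 2033 reached 10 counts in 1 library, 1750 of them in the deeper replicate 2, and 378 members had under 30 counts in both libraries together.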

How the data were processed

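The deposited file gives, for each of 56493 genes, a raw count in each of the 4 libraries, with gene type, exon positions, strand, feature length in bases and annotation terms, per the file headers. The kit (QIAseq UPX) reads transcripts from their 3' end, and the products were adapted to an MGI sequencer, per the labels' protocols. The submitters' processing notes name Trim Galore 0.6.7, Trimmomatic 0.39, cutadapt 3.7, STAR 2.7.10a, featureCounts 2.0.1 and GRCm39, with no order. Use of strand, of molecular identifiers and of reads with several alignments is not given in the sources used here. Only the 2 control columns were read, and 0 per-sample columns were left unmapped.

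CPM values were computed from the deposited counts over all genes of a library (Python 3.11.15, pandas 2.3.3). No test across samples was made, since the libraries form 1 group. Intervals are exact (Clopper-Pearson) for ratios and Wilson for shares, at 95%, with SciPy 1.17.1. They cover counting error only. TMM (edgeR 4.0.16) and DESeq2 1.42.0 size factors (R 4.3.3) served as other scalings. The computation was tested on simulated data. A gene counts in the first of the 37 lists that holds it. Members and lists were chosen with earlier results of these data known. The text names the 30 most abundant members, the 4 most abundant genes of a list, the 10 largest and smallest ratios among members with at least 60 counts, 3 genes on either side of the minimum, Stim1, Stim2 and cell markers at 0. Some genes that this rule names are not reported here. Other genes were chosen after their values were seen.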

Additional observations from a re-analysis of the deposited data

Results flagged for a closer look

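Counts outside the protein-coding genes were not part of the ranking and lay above the limit that a count of 0 allows. Unprocessed pseudogenes held 14.1% of the counts in control replicate 1 and 8.36% in control replicate 2, led by Gm29216 on chromosome 1 with 11578 and 11528 counts. Processed pseudogenes held 4.36% and 3.53%. How reads that match several places were counted is not stated, so pseudogene counts are not shown to be RNA of the pseudogenes themselves. The origin of these reads was not tested. Long noncoding RNAs held 2.53% and 2.73%, and Malat1, a nuclear RNA of most cells, had 2478 and 4590 counts, a mean of 13304 CPM, above every protein-coding member.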

How the results depend on the processing

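The limits are the shallow depth, 2 libraries of 1 group and unstated handling of near-copy genes. The number of members was 4898 with a minimum of 5 counts, 1606 with 20 and 11876 with a count in either library. With 1 library alone it ran from 3320 to 4787. The share of the 30 most abundant members was 10.9%, 13.4% of protein-coding counts and 27.9% per kilobase. Of protein-coding counts the shares were 0.630% for the basal, 9.97% for the ribosomal and 3.01% for the respiratory chain list. Per kilobase they were 0.730% (basal), 11.5% (spinous), 5.04% (granular), 0.536% (Langerhans cell), 16.8% (ribosomal) and 5.75% (respiratory chain). Without Lgals7 and Fam25c, left out after seeing the data, the spinous share was 1.56%, below the granular share of 2.61%. The numbers 2-fold higher in replicate 2 and in replicate 1 were 462 and 508 with a minimum of 5 counts and 82 and 74 with 20. They were 1592 and 1507 among all genes with a count in both libraries, a smaller set than the 11876. With replicate 2 thinned to the total of replicate 1 they were 251 and 131. Among members with at least 60 or 200 counts they were 169 and 51, and 40 and 3. Those sets were added after seeing the data and favour genes higher in the deeper replicate 2. No paired analysis was possible because both libraries belong to 1 group.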
